A study of Mus musculus with 2 samples.

Results

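The messages of 33 mouse genes that carry glucose from uptake to lactate were read in the cytosol of macrophages, from the glucose transporters and the glycolytic enzymes to the lactate dehydrogenase subunits, the lactate exporters and the pentose phosphate pathway, with Pdk1 and Hif1a as regulators. They were found in the tables by gene symbol, and all 33 are among the 55536 annotated genes. Aldoa is the symbol of a pair of annotated genes, and the values below are those of the expressed one, since the other held 4 and 3 counts.

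The cells were macrophages grown from the bone marrow of C57BL/6J mice, an inbred strain with no engineered allele named in the labels. They received 100 ng/ml lipid A, the lipid anchor of lipopolysaccharide and the ligand of the receptor TLR4, for 12 h. They were then washed, rested for 12 h and given 100 ng/ml lipid A again for 75 min. The cytosol was separated, its RNA was freed of ribosomal RNA, and 2 biological replicates of this 1 group were sequenced. All treatments are shared by both libraries, so the levels below measure neither induction by lipid A nor the effect of the rest. Age and sex are given as not collected, and both replicates carry 1 donor code. The main test between them sets 1 library against 1, and its p-values hold counting error only. They do not measure the spread between replicates, and a difference they mark could be technical.

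Glycolysis splits glucose into pyruvate in the cytosol, spending ATP in its early steps and regaining it in its late, or payoff, steps. Lactate dehydrogenase turns pyruvate into lactate, which regenerates the NAD+ that glycolysis needs, and monocarboxylate transporters carry lactate out of the cell. The pentose phosphate pathway takes glucose 6-phosphate instead: its oxidative branch makes NADPH and its nonoxidative branch exchanges sugars with glycolysis. Macrophages that meet bacterial lipopolysaccharide are known for leaning on glycolysis, and the transcription factor HIF-1, of which Hif1a encodes the oxygen-regulated subunit, is known to drive many of these genes.

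Alternative splicing of Pkm, which encodes the pyruvate kinase of most tissues, decides which form of the last glycolytic enzyme is made, so its exons are shown first. The transcripts Pkm-201 and Pkm-202 each carry 1 of a pair of mutually exclusive exons on chromosome 9 of mm10. The exon of the PKM1 form lies at chr9:59675029-59675195 and that of the PKM2 form at chr9:59675568-59675734, both on the plus strand and both coding. Each is 167 bases long. Written 5′ to 3′, with the positions at which they differ in capitals, they read:
Pkm1 exon: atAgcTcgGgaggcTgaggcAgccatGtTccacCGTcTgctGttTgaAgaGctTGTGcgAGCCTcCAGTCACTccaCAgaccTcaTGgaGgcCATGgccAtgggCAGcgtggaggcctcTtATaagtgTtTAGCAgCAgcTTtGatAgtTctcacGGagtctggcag
Pkm2 exon: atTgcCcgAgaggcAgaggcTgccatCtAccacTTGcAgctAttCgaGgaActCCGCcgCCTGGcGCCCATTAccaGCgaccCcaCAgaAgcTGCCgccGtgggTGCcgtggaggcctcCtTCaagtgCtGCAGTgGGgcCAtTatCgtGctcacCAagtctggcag
They share 103 positions and differ at 64, so reads from this part of the message can be told apart.

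The PKM2 transcript made up most of the Pkm message in both libraries. Pkm-201, which carries the downstream exon, held 84.2% and 86.3% of the gene's TPM in replicates 1 and 2 in the alignment-based table (85.3 ± 1.46%, SD, n = 2). TPM gives the relative abundance of transcripts in a library, corrected for their length. Pkm-202, which carries the upstream exon, held 15.4% and 13.2% (14.3 ± 1.55%). The second table, made from the reads without the alignment, gave Pkm-201 85.4 ± 0.862% and Pkm-202 13.6 ± 1.08%. The share of the PKM2 transcript thus differed between the tables by less than the SD over replicates.

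Levels spanned a wide range along the pathway, with the highest messages for Gapdh, Aldoa and Pkm and low ones for the transporters among the 33 genes. Of the 33 genes, 30 were detected, meaning that TPM was 1 or more in each replicate. At 100 or more in both replicates 3 genes were high (Gapdh, Aldoa and Pkm), 17 were moderate (10 to under 100) and 10 were low (1 to under 10). The 3 below 1 in at least 1 replicate were Slc2a3, Aldoc and Slc16a1, each of which still had counts in both libraries. For comparison, 40.0% of 22028 protein-coding genes were detected and 15.6% reached a TPM of 10 in both replicates, as did 20 of the 33 genes. The median over all 33 was 14.2 and 14.6 TPM in replicates 1 and 2 (14.4 ± 0.283, SD, n = 2), and over the 30 detected ones 21.9 ± 0.590, beside 7.68 ± 0.502 over all 8812 detected protein-coding genes. Together the 33 genes held 0.482 ± 0.00898% of the TPM of protein-coding genes, and Gapdh, Aldoa and Pkm held 43.3 ± 2.38% of that part. All levels that follow are in TPM, given for replicates 1 and 2 and then as mean ± SD with n = 2.

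**Figure D1:**
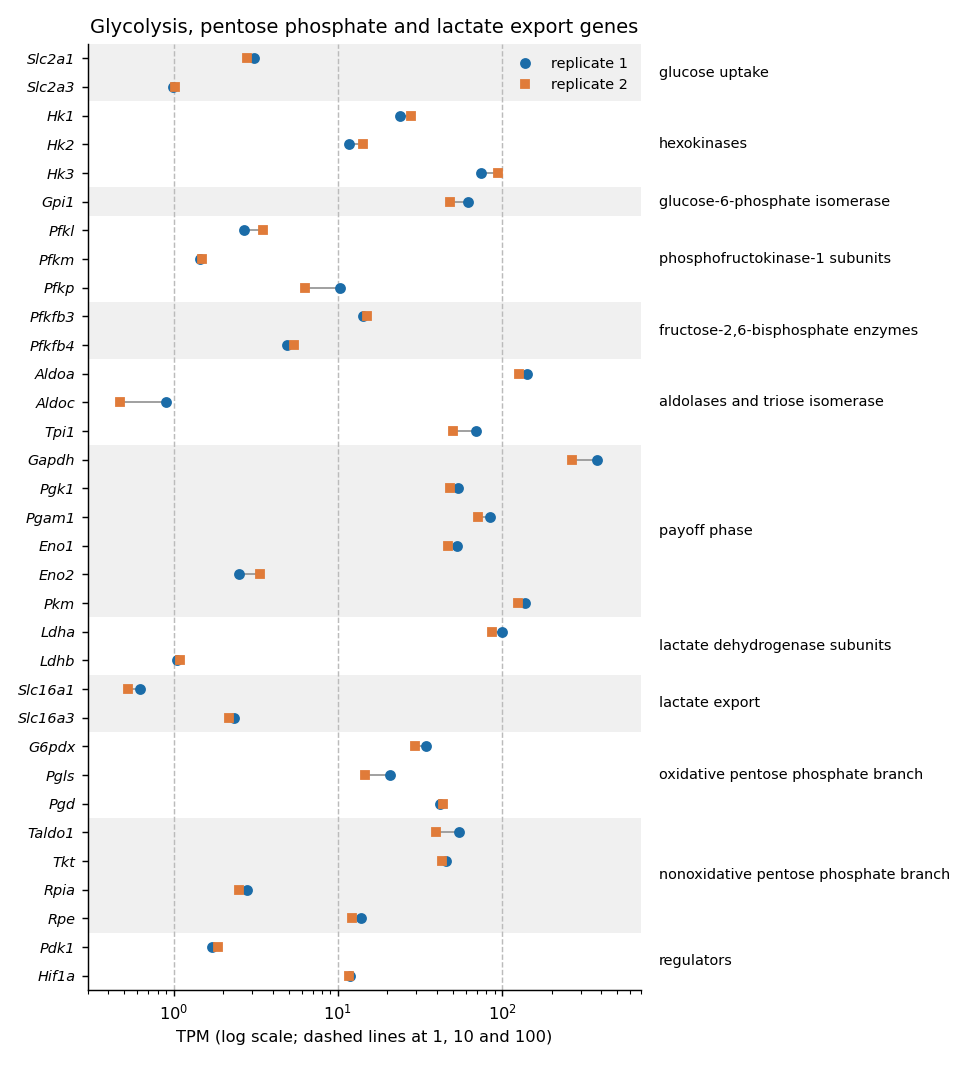
TPM (log scale) of each of the 33 genes in replicate 1 (circles) and replicate 2 (squares), grouped by role, with dashed lines at 1, 10 and 100; the grey line joins the replicates. Gapdh, Aldoa and Pkm lie above 100 in both replicates, while both lactate exporters lie under 10.

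Glucose enters cells through facilitative transporters, and the message of the best known one was low. Slc2a1, which encodes GLUT1, stood at 3.10 and 2.78 (2.94 ± 0.226), rank 7019 of the 8812 detected protein-coding genes. Slc2a3, which encodes the high-affinity transporter GLUT3, stood at 0.990 and 1.02 (1.01 ± 0.0212), on either side of the detection limit. The values of each gene lay close together in the 2 libraries, and those of the pair did not overlap. Slc2a1 rests on 993 and 749 counts and Slc2a3 on 367 and 314.

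Hexokinases trap glucose by phosphorylating it, and the message of Hk3 exceeded those of Hk1 and Hk2 in both libraries. Hk3, an isozyme found mainly in myeloid cells, stood at 74.2 and 93.8 (84.0 ± 13.9) and lies on chromosome 13 from 55005985 to 55021385 of mm10. Hk1, the isozyme of most tissues, stood at 23.9 and 28.0 (26.0 ± 2.90). Hk2, the insulin- and hypoxia-regulated isozyme, stood at 11.6 and 14.3 (13.0 ± 1.87). The 3 ranges did not overlap, and replicate 2 was the higher for each of them. Hk3 was 3.10 and 3.35 times Hk1 and 6.37 and 6.56 times Hk2, and it held 68.3 ± 0.936% of the summed TPM of the 3. The share was 68.9 ± 0.559% in the read-based table.

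Gpi1, glucose-6-phosphate isomerase, stood at 62.1 and 48.0 (55.1 ± 9.98). The next step, phosphofructokinase-1, is the main point of control of the pathway, and the messages of its subunits were low. Pfkp, the platelet-type subunit, stood at 10.3 and 6.28 (8.31 ± 2.87), Pfkl, the liver-type subunit, at 2.69 and 3.52 (3.11 ± 0.587), and Pfkm, the muscle-type subunit, at 1.44 and 1.49 (1.47 ± 0.0354). Pfkp was highest in both libraries, but its lead was not stable: it held 71.5% of the summed TPM in replicate 1 and 55.6% in replicate 2 (63.5 ± 11.2%), and its ratio to Pfkl was 3.84 and 1.78. Pfkp shares 748 exonic bases with Pitrm1 on the opposite strand, a gene at 7.42 and 7.18 TPM. Since strandedness is not given in the sources used here, it is not known whether reads from the shared stretch could be told apart by strand.

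Fructose 2,6-bisphosphate, the strongest activator of phosphofructokinase-1, is made and removed by the PFKFB enzymes. Pfkfb3, whose product mostly makes it, stood at 14.2 and 15.0 (14.6 ± 0.601). Pfkfb4 stood at 4.89 and 5.37 (5.13 ± 0.339), so that Pfkfb3 held 74.0 ± 0.482% of the pair. The levels of both lay above those of Pfkl and Pfkm in each library. Pfkp, at 10.3 and 6.28, lay above Pfkfb4 and below Pfkfb3 in each.

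Downstream of phosphofructokinase the messages were more abundant, and 1 isozyme held nearly all of each family. Aldoa, which splits fructose 1,6-bisphosphate, stood at 141 and 126 (134 ± 10.8), rank 322. Aldoc, the brain-type aldolase, stood at 0.900 and 0.470 (0.685 ± 0.304), and Aldoa held 99.5 ± 0.185% of the pair. Tpi1, which interconverts the triose phosphates, stood at 69.3 and 50.2 (59.7 ± 13.5).

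In the payoff phase, where ATP and NADH are formed, 5 of 6 messages stood above 45 in both libraries. Gapdh, which oxidizes glyceraldehyde 3-phosphate and lies on chromosome 6 from 125161715 to 125166467, was the highest of the 33 genes at 378 and 268 (323 ± 78.1), rank 91. Its replicates also differed most in TPM. Pgk1, phosphoglycerate kinase, stood at 53.8 and 48.3 (51.1 ± 3.87), and Pgam1, phosphoglycerate mutase, at 84.5 and 71.3 (77.9 ± 9.34). Eno1, the enolase of most tissues, stood at 53.0 and 46.5 (49.7 ± 4.6). Eno2, the neuronal enolase, stood at 2.51 and 3.34 (2.93 ± 0.587), so that Eno1 held 94.4 ± 1.54% of the pair. Pkm stood at 138 and 125 (131 ± 8.86), rank 331, and differed from Aldoa by less than the SD of either.

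Lactate dehydrogenase is a tetramer of A and B subunits, of which A is known to favour the making of lactate. Ldha, on chromosome 7 from 46841475 to 46855627, stood at 99.9 and 86.3 (93.1 ± 9.60), rank 473. Ldhb stood at 1.04 and 1.09 (1.07 ± 0.0354) and just passed the detection limit, with 116 and 81.8 counts. Ldha was 96.0 and 79.2 times Ldhb, and held 98.9 ± 0.153% of the pair.

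The messages of the classical lactate exporters were low beside that of Ldha. Slc16a3, which encodes MCT4, the exporter of strongly glycolytic cells, stood at 2.32 and 2.17 (2.25 ± 0.106). Slc16a1, which encodes the widely expressed MCT1, stood at 0.620 and 0.530 (0.575 ± 0.0636). The 2 genes did not overlap, and Slc16a3 held 79.6 ± 1.03% of the pair by TPM and 65.0 ± 2.16% by expected counts, which are not corrected for the longer Slc16a1 message.

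**Figure D2:**
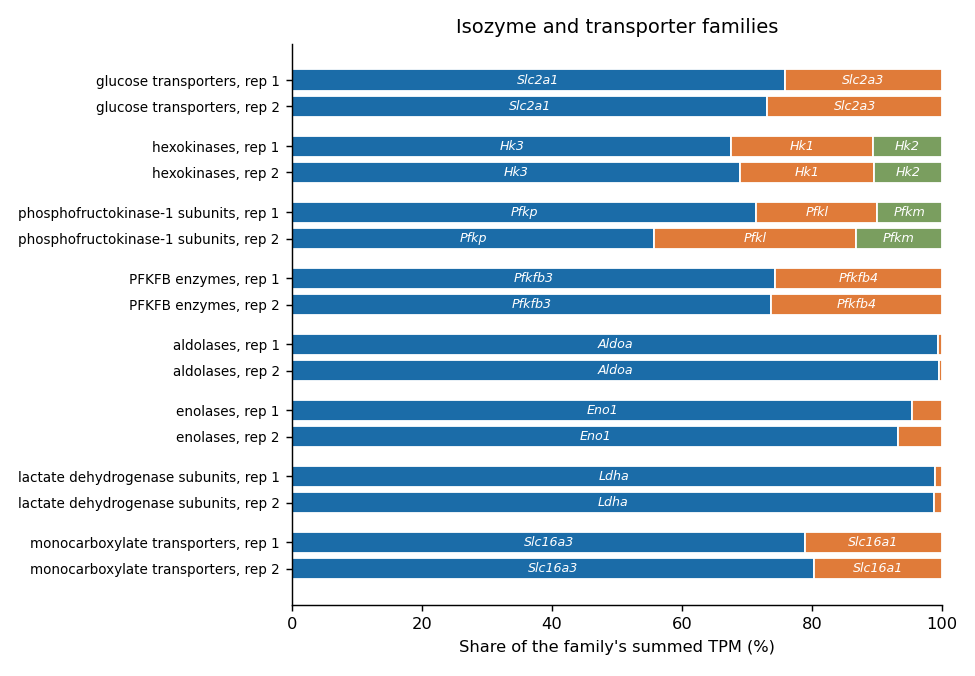
Share of each isozyme or transporter family's summed TPM (%) held by its members in each replicate (1 bar per replicate, bars starting at 0). Aldoa, Eno1 and Ldha hold over 93% of their families in both replicates, and the Pfkp share falls from 71.5% in replicate 1 to 55.6% in replicate 2.

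The oxidative branch of the pentose phosphate pathway was present at moderate levels in all 3 of its steps. G6pdx, glucose-6-phosphate dehydrogenase, the entry enzyme, stood at 34.6 and 29.7 (32.1 ± 3.46). Pgls, the lactonase, stood at 20.8 and 14.6 (17.7 ± 4.40), and Pgd, which makes the pathway's later NADPH, at 42.1 and 43.4 (42.7 ± 0.940). Pgd was the highest of the 3 in both libraries and Pgls the lowest. G6pdx shares 418 exonic bases with Ikbkg on the opposite strand, a gene with 2196 and 1929 counts.

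The nonoxidative branch split into a pair of abundant and a pair of scarcer messages. Taldo1, transaldolase, stood at 54.2 and 39.7 (47.0 ± 10.3), and Tkt, transketolase, at 45.2 and 43.2 (44.2 ± 1.41). Their ranges overlapped. Rpe, ribulose-phosphate epimerase, stood at 13.8 and 12.3 (13.0 ± 1.08), and Rpia, ribose-5-phosphate isomerase, at 2.81 and 2.50 (2.66 ± 0.219). Rpe shares 558 exonic bases with Kansl1l on the opposite strand.

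Set side by side within each library, the median of the 3 oxidative genes exceeded that of the 4 nonoxidative genes by 0.47 and 0.42 on the scale of log2(TPM + 0.1) (0.45 ± 0.03, n = 2). As medians of TPM the branches stood at 32.1 ± 3.46 and 27.7 ± 2.47, a narrower gap, because the nonoxidative median lies midway between the abundant and the scarce pair and the midpoint is lower on a log scale. Mean levels of Taldo1 and Tkt exceeded those of all 3 oxidative genes, but the order was not the same in both libraries. In replicate 2 Pgd, at 43.4, lay above Tkt at 43.2 and Taldo1 at 39.7. The median of the 7 pentose phosphate genes lay below that of the 18 glycolytic enzyme genes, from the hexokinases to the lactate dehydrogenase subunits and without the PFKFB genes, by a log2 difference of -0.63 and -0.67 (-0.65 ± 0.03). In TPM the medians of these sets were 32.1 ± 3.46 and 50.3 ± 4.35. Both differences were larger than their SD over replicates, and with 1 group of 2 libraries neither was tested.

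The regulators were expressed at lower levels than most of the enzymes. Hif1a stood at 11.9 and 11.7 (11.8 ± 0.141). Pdk1, pyruvate dehydrogenase kinase, which holds pyruvate back from the mitochondria, stood at 1.72 and 1.87 (1.80 ± 0.106). The values of both differed little between the libraries.

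Some transporters outside the 33 genes carried more message than those inside. Among 10 other hexose transporters, 3 were detected, and Slc2a6, which encodes GLUT6, a transporter found on lysosomes of macrophages, stood at 46.6 and 58.4 (52.5 ± 8.35). That was 18.0 ± 4.23 times the TPM of Slc2a1, and 16.5 ± 3.48 times in the read-based table. Slc2a9, a urate transporter, and Slc2a8 followed at 5.59 ± 0.0424 and 3.28 ± 0.156. Over these 5 genes, chosen for this sum after their values were seen, Slc2a6 held 80.2 ± 2.64% of TPM and Slc2a1 4.56 ± 0.923%. Slc2a4, Slc2a10 and Slc2a13 were at 0 TPM with at most 1 count in a library.

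Among 7 other genes of monocarboxylate transport, 5 were detected. Bsg, basigin, the chaperone that brings MCT1 and MCT4 to the cell surface, stood at 65.5 and 64.8 (65.1 ± 0.502). Slc16a6 stood at 19.4 and 28.9 (24.2 ± 6.70), Slc16a7, which encodes the lactate and pyruvate transporter MCT2, at 17.6 and 14.5 (16.0 ± 2.19), and Slc16a10, an aromatic amino acid transporter, at 13.6 and 12.7 (13.1 ± 0.615). Slc16a3 held 4.01 ± 0.455% of the summed TPM of Slc16a6, Slc16a7, Slc16a10, Slc16a3 and Slc16a1, again a sum chosen after the values were seen. Each of the first 3 exceeded Slc16a3 in both libraries.

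**Figure D3:**
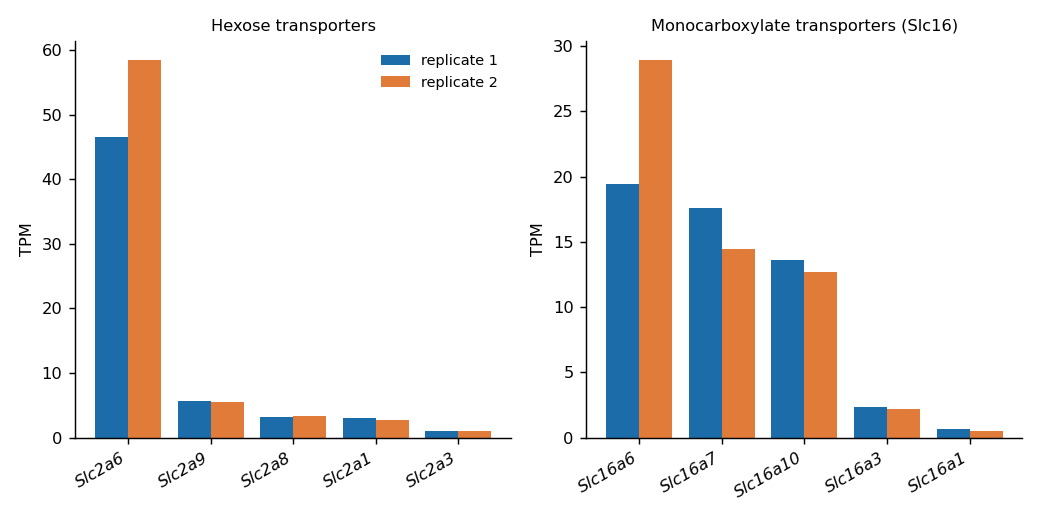
TPM of hexose transporters (left) and of Slc16 family transporters (right) in replicates 1 and 2 (bars starting at 0). Slc2a6 stands at 46.6 and 58.4 TPM against 3.10 and 2.78 for Slc2a1, and Slc16a6, Slc16a7 and Slc16a10 all stand above Slc16a3 and Slc16a1.

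Alternative isozymes of the same steps added little. Of 17 such genes 5 were detected, all low, led by Adpgk, which phosphorylates glucose with ADP, at 5.86 ± 0.969, Pfkfb2 at 2.23 ± 0.141, Bpgm at 2.00 ± 0.0707 and Tigar at 1.97 ± 0.120. Hkdc1, Gapdhs, Pgk2, Pklr and Ldhc had no count in either library; Gapdhs, Pgk2 and Ldhc are isozymes of the testis. With 64187219 and 49429864 expected counts on annotated genes, these 5 messages were not detectable at this depth. Among 8 other pentose phosphate genes 4 were detected, all low: Prps2 at 6.64 ± 1.29, H6pd at 4.03 ± 0.997, Rbks at 3.46 ± 1.23 and Prps1 at 1.39 ± 0.163.

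For the fate of pyruvate, 10 of 12 genes of its entry into mitochondria were detected. Mpc1, a subunit of the mitochondrial pyruvate carrier, stood at 67.4 and 37.9 (52.7 ± 20.8), with a large gap between the libraries, and its partner Mpc2 at 17.3 ± 2.61. Dld and Pdhb, subunits of the pyruvate dehydrogenase complex, stood at 22.8 ± 4.11 and 15.8 ± 3.21. Of the kinases that switch that complex off, Pdk2 stood at 1.14 ± 0.325, and Pdk4 was listed at 0 TPM with 1 count in replicate 1. The reverse pathway was nearly silent: 2 of 7 gluconeogenesis genes were detected, G6pc3 at 4.54 ± 0.0212 and Pck2 at 1.87 ± 0.318, and Fbp1, Fbp2 and Pck1 had no count.

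Glycogen genes were better represented, with 9 of 11 detected. Gyg, glycogenin, which primes glycogen, stood at 67.4 and 38.0 (52.7 ± 20.8), Ugp2 at 19.7 ± 2.16, and Pygb and Pgm1 at 10.7 ± 2.12 and 8.48 ± 0.332. Gys1, the glycogen synthase of muscle and most tissues, stood at 1.76 ± 0.0707 and Gys2, that of liver, had no count.

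Around Hif1a, 5 of 8 regulators of the hypoxia pathway were detected, all low. Arnt, its dimer partner, stood at 9.13 ± 0.438 and Egln2, a prolyl hydroxylase, at 9.83 ± 0.0354. Vhl stood at 3.31 ± 0.219 and Egln1 at 3.03 ± 0.658, while Epas1, the alternative oxygen-regulated subunit, stood at 0.185 ± 0.00707 and Egln3 at 0.00500 ± 0.00707. Of 14 genes known as targets of hypoxia-inducible factors outside glycolysis, 9 were detected, led by Bnip3l at 22.0 ± 6.21, P4ha1 at 18.8 ± 2.99, Vegfa at 16.2 ± 5.03 and Ero1l at 10.8 ± 2.68. Car12 had no count, and Ankrd37 and Ddit4 stood at 0.0350 ± 0.0354 and 0.195 ± 0.0354. The median of these targets was 2.07 ± 0.990, beside 14.4 ± 0.283 for the 33 genes.

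The promoters of the 33 genes were searched for the core of the hypoxia response element, the letters ACGTG or GCGTG on either strand, in the 250 bases before each RefSeq transcription start (GRCm38.p6). Of the 33 genes 32 matched a promoter entry, Slc2a3 being the exception, with 46 promoters in all. Such a core was present in 36 of 46 promoters (78.3%) and in at least 1 promoter of 28 of 32 genes (87.5%). Counted by gene in the same way, it was present in 41.5% of 27025 genes and in 63.4% of the 7040 protein-coding genes with a TPM of at least 1. Counted by promoter, it was present in 38.6% of all 32851 promoters, in 44.0% of those of protein-coding genes and in 57.4% of the 9006 promoters of protein-coding genes with a TPM of at least 1. The genes have up to 4 promoters each, and 6 windows, in 3 genes, overlap another of the same gene and can count a site again. Each core holds a CG pair, and the CG content of the promoters was not matched. Gpi1, Tpi1, Eno2 and Rpe held none in these windows, a group whose levels ran from 2.93 ± 0.587 TPM (Eno2) to 59.7 ± 13.5 (Tpi1).

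Promoters of the pair of lactate dehydrogenase genes are shown, since their levels lay far apart. In the Ldha promoter at chr7:46845554-46845803 on the plus strand, 5 matches were found, 4 of them as overlapping pairs in the palindrome CACGTG. A second Ldha promoter at chr7:46846832-46847081 held 1 match, the same number as the Ldhb promoter at chr6:142507958-142508207 on the minus strand. The number of matches therefore does not set the genes apart in every window. The upstream Ldha promoter and that of Ldhb are printed. Written 5′ to 3′ in the direction of transcription, with the matches in capitals, they read:
Ldha upstream promoter: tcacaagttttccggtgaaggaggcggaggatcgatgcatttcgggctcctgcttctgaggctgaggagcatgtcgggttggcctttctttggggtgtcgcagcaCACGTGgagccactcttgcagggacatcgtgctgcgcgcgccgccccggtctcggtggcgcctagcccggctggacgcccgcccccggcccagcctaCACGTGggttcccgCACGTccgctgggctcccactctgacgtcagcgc
Ldhb promoter: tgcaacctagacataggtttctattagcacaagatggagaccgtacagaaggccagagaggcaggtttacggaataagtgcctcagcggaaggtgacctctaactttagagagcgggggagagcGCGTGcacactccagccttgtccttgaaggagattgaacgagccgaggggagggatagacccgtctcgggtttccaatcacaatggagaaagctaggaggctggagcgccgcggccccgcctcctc
Slc16a1, which was not detected at a TPM of 1, held 4 matches, a pair of them overlapping in the palindrome CACGTG. Gapdh held 2. A match is a run of letters and no evidence that a factor was bound there.

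Most of the 33 genes were read from the same main transcript in both tables. The leading transcript was the same in 30 of 33 genes and differed in 3 (Slc2a3, Hk3 and Aldoc), and it held at least 90% of the gene's TPM in 14 (42.4%, beside 41.6% of 8812 detected protein-coding genes). The genes have between 1 and 21 annotated transcripts each. Pgk1-201, Pgam1-201, Eno1-202, Ldha-202 and Pgd-201 each held over 99% in the alignment-based table and over 98% in the read-based one, so these genes are in effect 1 transcript each. In Gapdh, Gapdh-203 led in both tables, with 48.1% and 52.0% of TPM in replicates 1 and 2 in the alignment-based table and 65.8 ± 6.60% in the read-based one, followed by Gapdh-202 with 42.1 ± 3.14% and 33.3 ± 6.75%.

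Tkt was the exception among the abundant genes, since most of its message was assigned to a transcript annotated as noncoding. Tkt-209, of the class processed transcript, held 75.6% and 80.6% of TPM (78.1 ± 3.50%), and 82.8% and 85.7% in the read-based table (84.2 ± 2.02%). The coding Tkt-201 held 23.4% and 19.2% (21.3 ± 2.98%). Tkt-209 is 1962 bases long and Tkt-201 3223, both have 14 exons, and 12 exons are identical. They share 1877 bases, 95.7% of Tkt-209, and 94.3% of the coding bases of Tkt-201 are also in Tkt-209. Reads that lie wholly in the shared part cannot be assigned to either transcript by sequence. The leading transcript was not protein-coding in 4.72% of detected protein-coding genes and in 1 of these 33.

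For Hk2 and Hk3 the tables gave different transcript shares. Hk3-208 led in the alignment-based table with 38.9 ± 0.0566% beside Hk3-201 with 31.3 ± 4.28% and Hk3-204, a nonsense-mediated decay transcript, with 22.9 ± 3.45%. In the read-based table Hk3-201 led with 64.6 ± 0.702%, and Hk3-208 and Hk3-204 held 20.9 ± 0.931% and 5.06 ± 0.391%. Hk2-201 held 67.7 ± 3.4% in the alignment-based table and 99.1 ± 0.334% in the read-based one. Hk1-201 held 44.2 ± 2.47% and 40.9 ± 1.15%. The spread between replicates was small in each table beside the gap between the tables for Hk2 and Hk3.

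Slc2a1 and Pdk1 also depended on the table. Slc2a1-201, the coding transcript, held 86.5 ± 3.20% and 61.8 ± 3.03% in the alignment-based and read-based tables, and Slc2a1-204, a nonsense-mediated decay transcript, 12.7 ± 2.09% and 36.0 ± 2.68%. Pdk1-201 held 92.1 ± 8.35% and 34.5 ± 2.85%. Hif1a-201 led in both, with 72.7 ± 3.23% and 80.1 ± 3.76%. In Pfkfb3 no transcript reached 50% in the alignment-based table: Pfkfb3-206 held 36.5 ± 6.89% and Pfkfb3-220 33.8 ± 2.69%, and their order differed between the replicates.

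**Figure D4:**
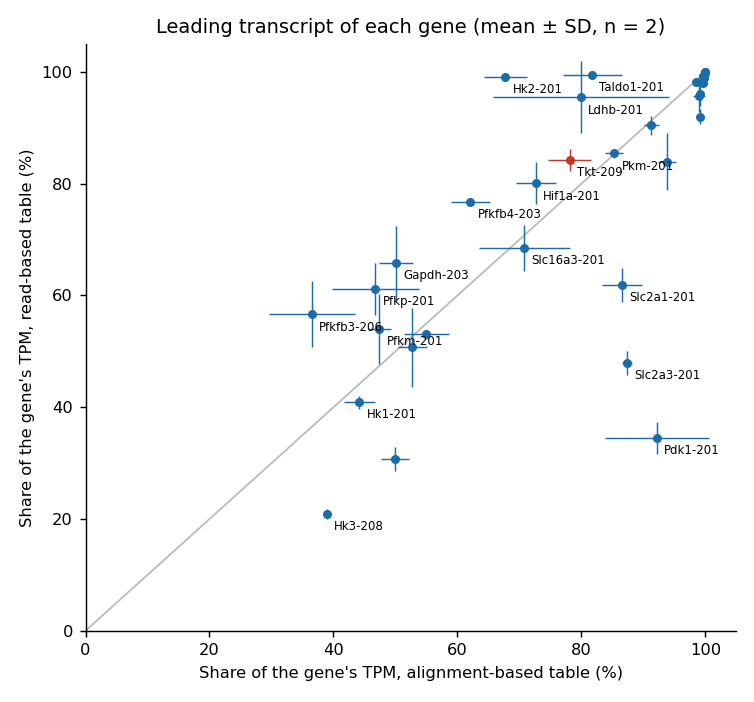
Share (%) of each gene's TPM held by its leading transcript in the alignment-based table (x axis) and the share of the same transcript in the read-based table (y axis), as mean ± SD over 2 replicates, with the line of equal shares. Tkt-209 (red, not protein-coding) stands at 78.1% and 84.2%, and Pdk1-201, Slc2a1-201, Slc2a3-201 and Hk3-208 lie far below the line.

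Several of these genes have near-identical copies that can draw their reads. Annotated pseudogenes with at least 90% identity over 300 bases or more numbered 168 for Gapdh, 13 for Ldha, 8 for Pkm, 5 each for Aldoa and Eno1, 4 for Pgk1 and 3 for Pgam1. In the alignment-based table the Gapdh pseudogenes together held 2104 and 1675 counts, 4.75% and 6.12% of the count of Gapdh, and 0.946% and 1.46% by read-based counts. Those of Pgk1 held 8.08% and 6.94%, and 4.25% and 5.27% in the read-based table. The 1 pseudogene of Ldhb held 7.22 and 6.19 counts, 6.24% and 7.57% of the low count of Ldhb, and 4.77% and 9.61% in the read-based table. For Ldha and Pkm the sum was at most 0.232%, for Aldoa 0, and for Pgam1 and Eno1 at most 0.881%. Gm7336, a copy of Gapdh on chromosome 7 with 99.8% identity, held 1696 and 988 counts in the alignment-based table, and 0.000176 and 46.8 in the read-based one. Gm5537, a copy of Pgk1 with 100% identity over 1252 bases, held 778 and 494, and 432 and 387. Eno1b, annotated as a protein-coding copy of Eno1 with 99.5% identity, held 246 and 200 counts, and 7.47 and 3.74 in the read-based table. Gm7336 and Gm5537 were singled out after their values were seen. The split between parent and copy is uncertain for Gapdh, Pgk1, Eno1 and Ldhb, the last of which lies just above the detection limit.

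At the level of genes the tables gave nearly the same counts for the 33 genes. After centring on the median of detected genes, the log2 ratio of read-based to alignment-based counts ran from -0.05 (Ldha) to 0.07 (Ldhb) in replicate 1 and from -0.07 (Ldhb) to 0.06 (Slc16a3) in replicate 2. Its SD over all detected genes was 0.79 and 0.76.

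The replicates were compared gene by gene, which sets library against library and not condition against condition. The two-sided exact binomial test on counts scaled by TMM in edgeR, with Benjamini-Hochberg adjusted p under 0.05 and a fold of at least 2, called 735 of 13298 genes (5.53%), 400 of them higher in replicate 2. None of the 33 genes was called. Without the fold limit 23 of 33 had an adjusted p under 0.05 (and 23 an unadjusted p under 0.05), as had 56.4% of all genes tested, so at this depth differences under 2-fold exceeded counting error. No gene of the 33 was called with DESeq2 size factors (5.52% of all genes tested), with no minimum count (4.58%), with read-based counts (7.33%), or by edgeR's exact test when a biological coefficient of variation of 0.1 (3.84%) or 0.2 (1.04%) was assumed. These settings kept the fold limit of 2, while the largest fold of the 33 in the main test was 1.72 (Aldoc), so they say little on smaller differences. Without the limit, adjusted p was under 0.05 for 23 with DESeq2 size factors (56.2% of all genes tested) and 24 with read-based counts (55.2%). By edgeR's exact test it was 0 at either coefficient (7.57% and 1.04%). With the fold limit at 1.5, 13.1% of genes tested were called and 1 of the 33, Aldoc, at a log2 ratio of replicate 2 to replicate 1 of -0.79 on 197 and 88 counts.

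Of the 94 other pathway genes described above or in the same lists, 65 had enough counts for the main test and 4 were called, against 5.53% of all genes tested. Ndrg1 and Adm, targets of hypoxia-inducible factors, were lower in replicate 2, with log2 ratios of -1.43 and -1.65 on 1236 and 352 and on 61 and 15 counts. Hif3a and Pcx were higher, with log2 ratios of 1.38 and 1.01, on 9 and 18 and on 47 and 73 counts.

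In TMM-scaled counts 32 of the 33 genes lay within 1.5-fold between the libraries (97.0%, beside 92.9% of detected protein-coding genes). The lowest log2 ratios of replicate 2 to replicate 1 after Aldoc were those of Pfkp (-0.55), Pgls (-0.42), Taldo1 (-0.40), Tpi1 (-0.38) and Gapdh (-0.32). The highest were those of Eno2 (0.51), Pfkl (0.50), Hk2 (0.48), Hk3 (0.45) and Hk1 (0.29). On this scale 13 genes were higher in replicate 2 and 20 lower (60.6%, beside 56.6% of detected protein-coding genes). The median log2 ratio of TPM + 1 was -0.12 over the 30 detected genes and -0.12 over all 9302 detected genes. In the read-based table it was -0.35 and -0.40, and with TMM-scaled CPM + 1 -0.06 and -0.04, so its size depended on the scale in the 33 genes as in all.

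Transcript length moved with the log2 ratio of TMM-scaled counts. On that scale all 11 of the genes shorter than 2000 bases were lower in replicate 2. Of the 15 of 2500 bases or more, 10 were higher. Among the 11, Ldhb and Rpia differed little, with log2 ratios of -0.12 and -0.09. In TPM Ldhb was slightly higher in replicate 2, at 1.04 and 1.09. Spearman's rho of ratio and length was 0.60 over the 33 genes and 0.40 over 8811 detected protein-coding genes, across genes of the same 2 libraries, which are not independent replicates. Protein-coding genes under 1500 bases had a median log2 ratio of -0.24 (n = 1932), and those of 4000 or more one of 0.10 (n = 1934). Of the genes with the lowest ratios, Pgls, Taldo1, Tpi1 and Gapdh are shorter than 2000 bases, while Pfkp, at 3298 bases, and Aldoc, at 2216, lay far below the medians of their length ranges. Of those with the highest, Hk1, Hk2, Hk3 and Pfkl are longer than 2500 bases and Eno2 is 2467. The part of length in these differences was not tested.

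**Figure D5:**
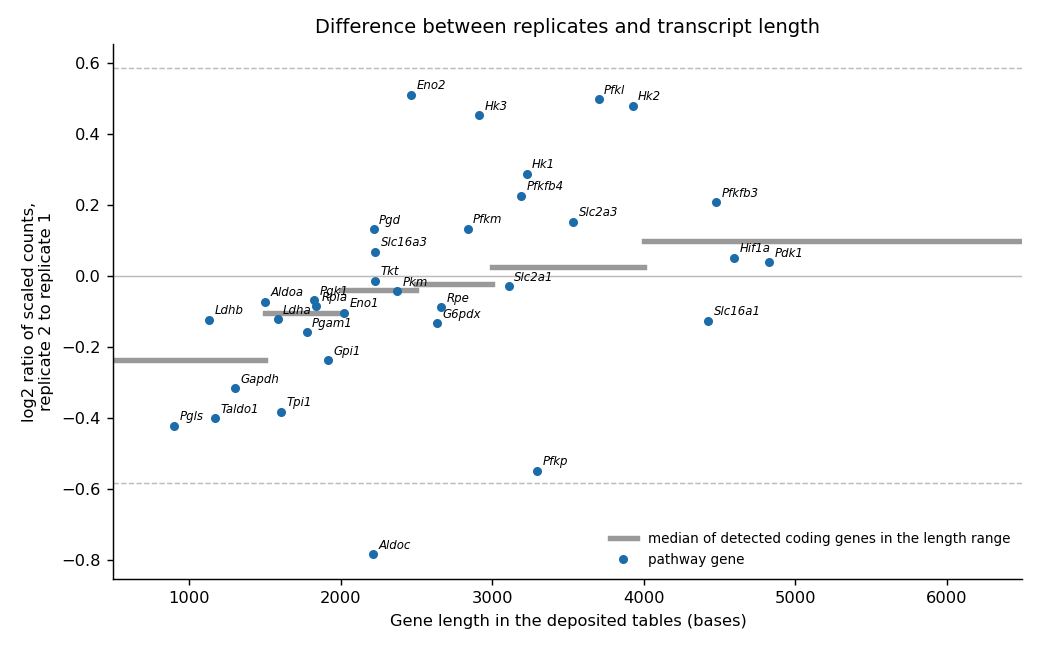
Log2 ratio of scaled counts, replicate 2 to replicate 1, of each of the 33 genes (points) against gene length in bases, with the median of detected protein-coding genes in 6 length ranges (grey bars; the lowest range is under 1500 and the highest 4000 or more). Dashed lines mark 1.5-fold; Aldoc at -0.79 is the sole point beyond them, and all 11 genes under 2000 bases lie below 0.

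The labelled cell type was checked against markers. All 10 macrophage markers were detected, 7 of them at 100 TPM or more, with a summed TPM of 5231 and 5762 in replicates 1 and 2. Of 42 markers of 6 other lineages 7 were detected: Cd4 at 15.4 ± 1.87, S100a9, S100a8, Mmp8, Cd79b, Vwf and Kdr. The summed TPM was 0.0200 and 0 over 7 erythroid markers, 7.71 and 14.1 over 8 neutrophil markers, 16.8 and 14.2 over 7 T and natural killer cell markers, and 1.19 and 1.96 over 6 B cell markers. It was 0.230 and 0.420 over 6 dendritic cell markers and 6.07 and 4.93 over 8 fibroblast and endothelium markers. The defining T cell genes Cd3e, Cd3d and Cd3g stood at or under 0.0400 in each library, and Col1a1, Col3a1 and Pdgfra at or under 0.0100. Adgre1, a macrophage marker, stood at 358 and 706 and was called between the replicates by the main test, the only 1 of the 10 macrophage markers that was; Cd14 and Cd68 had log2 ratios of replicate 2 to replicate 1 of -0.52 and -0.27. Of the markers of other lineages 15 had enough counts for that test and 6 were called, all higher in replicate 2. They were S100a9, S100a8, Ngp and Ltf of neutrophils, Flt3 of dendritic cells and Pecam1 of endothelium, with log2 ratios of 1.27, 1.02, 1.84, 2.06, 3.49 and 1.04. Of these only S100a9 and S100a8 reached a TPM of 1, at 3.14 and 7.31 and at 2.21 and 4.35. The part of these markers in the differences above was not tested. Where a preparation holds more than 1 cell type, its RNA cannot tell fewer cells of a type from less RNA per cell.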

How the data were processed

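Total RNA of the cytosolic fraction was measured in 2 libraries of 1 group. The deposited text names mm10 and GENCODE M21; no aligner, quantifier or strandedness was given in the sources used here. The authors deposited expected counts per gene and transcript, which are estimates that keep the depth of the library, per the file headers. TPM, also deposited by the authors, is scaled over all features, including 7SL RNA, which held 62.9% and 60.3% of TPM, while protein-coding genes held 29.9% and 26.2%; the deposited FPKM values served as an alternative. The deposited percent values divide the TPM of a gene among its transcripts, and the deposited score of estimation error is the posterior SD of counts, per the file headers.

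Members and gene lists were chosen with earlier results of these data known. All 33 members were named, with at most 4 top and 3 bottom genes by TPM (more where tied at no count) of each of 9 further lists, part of which are printed and some of which are not reported here, up to 4 copies whose symbol starts with a member's, and every leading transcript; genes called between replicates were named after their values were seen. Expected counts were rounded to whole numbers and tested between replicates, for genes with a mean count of at least 10, by a two-sided exact binomial test with TMM scaling (edgeR 4.0.16, R 4.3.3); it holds counting error only. Totals of 64187219 and 49429864 counts give replicate 1 the smaller error. Alternatives used DESeq2 1.42.0 size factors and the read-based table. Copies were found with blastn 2.17.0. Contrasts of medians used log2(TPM + 0.1) and shifts log2(TPM + 1).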

Additional observations from a re-analysis of the deposited data

How the results depend on the processing

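Levels in TPM depend on the scale, while the leading gene of each isozyme family held the largest share in TPM, read-based TPM and expected counts and with either replicate left out. The median over the 33 genes was 51.5 with TPM rescaled to protein-coding genes, 7.27 in the read-based table and 26.0 in FPKM, and 14.2 to 14.6 with 1 replicate left out. From 28 of the 33 genes (read-based table) to 31 (replicate 1 left out) passed a TPM of 1, 21 passed a TPM of 5, and 33 had a mean count of at least 10. In read-based TPM the leading shares were 65.2% for Slc2a1, 74.8% for Pfkfb3 and 81.2% for Slc16a3, and the log2 difference of pentose phosphate and glycolytic enzymes was -0.58. By expected counts, which are not length-corrected, the shares were 71.7% for Slc2a1, 64.1% for Hk3, 80.3% for Pfkfb3, 99.2% for Aldoa, 99.2% for Ldha and 65.0% for Slc16a3. With 1 replicate left out the shares ran from 55.6% to 71.5% for Pfkp and from 93.3% to 95.5% for Eno1. At a fold of 1.5 the number of the 33 genes called between replicates was 1, and 0 in the other settings, which all kept the fold limit of 2. The signs of both log2 differences of medians and of the shift between replicates (-0.35 to -0.06) were kept. The leading transcript changed in the read-based table for Slc2a3, Hk3 and Aldoc. Promoters, the relation with length and the further gene lists were not put through these alternatives. No paired analysis was possible because there is 1 group. Scarce messages such as Ldhb and Aldoc rest on under 200 counts a library.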
